A study of Mus musculus with 12 samples.

Results

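The genes described here are 8 that were picked by symbol for sterol synthesis: *Hmgcs1*, *Idi1*, *Fdps*, *Sqle*, *Lss*, *Cyp51*, *Insig1* and *Srebf2*. Every row of the transcript table that carries one of these symbols was taken, and the transcript with the highest mean level stood for its gene. The table names 52169 gene symbols on 189364 transcripts. Of the 8 genes, 7 were found, with 57 transcripts in all, and the expression of *Hmgcs1* was not analysed here. The label holds for 5 of the 7, which are enzymes of the pathway, while *Insig1* and *Srebf2* are its regulators.

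RNA-seq was carried out on striatal tissue punches of C57BL/6J mice, 4 groups of 3 libraries. All mice had received 1 µl of 6-OHDA (6-hydroxydopamine, a toxin that kills dopamine neurons) at 3 µg/µl into the right medial forebrain bundle, after desipramine at 25 mg/kg, which protects noradrenergic neurons, and had recovered for 2 weeks. This lesion is a model of the dopamine loss of Parkinson's disease, and the unlesioned samples are the opposite striatum of animals that carry a lesion. Every group received L-DOPA, the dopamine precursor, at 10 mg/kg with benserazide at 7.5 mg/kg, so no group is without drug. The acute groups had 1 injection and the chronic groups daily injections for 9 days, and tissue was taken 1 hour after the last one. By this schedule the chronic mice were also sampled more days after the lesion. The part of that time in the differences between chronic and acute groups was not tested. The 4 groups are thus acute unlesioned, acute lesioned, chronic unlesioned and chronic lesioned, all from female mice whose age is not given in the sources used here.

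Cells build cholesterol from acetyl-CoA through mevalonate, isoprenoid units and squalene, which is closed to lanosterol and then trimmed to cholesterol. The adult brain makes nearly all of its own cholesterol because plasma lipoproteins hardly cross the blood-brain barrier, and oligodendrocytes and astrocytes are known as its main producers. The genes of the pathway are switched together by SREBP-2, the product of *Srebf2*. When sterols are plentiful, the Insig proteins hold its precursor in the endoplasmic reticulum, and when sterols fall, the precursor moves to the Golgi, is cut, and enters the nucleus. *Insig1* is itself a target of this factor.

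The promoters of the measured genes that had an entry are shown first. A link between their motifs and the expression values that follow was not tested. RefSeq promoters on GRCm38.p6 (250 bases before to 50 after the start of a gene) held an entry for 6 of the 8 genes, and *Sqle* and *Fdps* had none. The sequences printed are the 250 bases before the start, read 5′ to 3′ on the strand of the gene, and capitals mark CCAAT, the motif of NF-Y, and GGGCGG, the motif of Sp1, on either strand (ATTGG and CCGCCC on the other). They lie at chr13:8885356-8885605 (plus strand) for *Idi1*, chr10:76531355-76531604 (plus) for *Lss*, chr5:4104698-4104947 (minus) for *Cyp51*, chr5:28071162-28071411 (plus) for *Insig1* and chr15:82147019-82147268 (plus) for *Srebf2*.
Idi1: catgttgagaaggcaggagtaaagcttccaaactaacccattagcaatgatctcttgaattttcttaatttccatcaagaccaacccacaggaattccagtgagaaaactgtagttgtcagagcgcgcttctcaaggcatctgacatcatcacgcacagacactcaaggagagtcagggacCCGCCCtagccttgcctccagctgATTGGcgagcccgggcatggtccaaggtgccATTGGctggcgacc
Lss: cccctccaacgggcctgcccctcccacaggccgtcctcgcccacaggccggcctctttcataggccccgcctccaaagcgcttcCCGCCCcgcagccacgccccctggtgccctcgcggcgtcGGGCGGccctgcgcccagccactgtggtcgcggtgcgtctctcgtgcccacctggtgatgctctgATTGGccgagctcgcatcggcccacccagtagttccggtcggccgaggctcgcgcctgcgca
Cyp51: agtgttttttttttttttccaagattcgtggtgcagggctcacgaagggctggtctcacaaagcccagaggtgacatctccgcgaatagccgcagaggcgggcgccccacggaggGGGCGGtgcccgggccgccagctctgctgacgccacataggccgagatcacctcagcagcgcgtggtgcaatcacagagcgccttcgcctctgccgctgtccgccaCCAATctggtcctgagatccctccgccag
Insig1: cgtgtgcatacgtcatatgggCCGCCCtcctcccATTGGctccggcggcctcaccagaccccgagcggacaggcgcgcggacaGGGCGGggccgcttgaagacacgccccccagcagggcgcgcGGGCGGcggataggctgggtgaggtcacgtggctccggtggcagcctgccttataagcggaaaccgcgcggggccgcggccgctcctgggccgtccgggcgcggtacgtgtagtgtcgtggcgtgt
Srebf2: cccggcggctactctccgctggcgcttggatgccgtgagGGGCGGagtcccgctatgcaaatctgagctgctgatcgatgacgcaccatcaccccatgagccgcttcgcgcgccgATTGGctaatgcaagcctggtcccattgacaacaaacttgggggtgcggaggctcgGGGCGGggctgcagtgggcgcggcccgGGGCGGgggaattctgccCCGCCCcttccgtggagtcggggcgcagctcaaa

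CCAAT stood in 6 of the 6 promoters on at least 1 strand, as it did in 37.4% of all 32851 promoters of this length, and GGGCGG in 6 of 6 against 35.7%. The classic sterol regulatory element TCACNCCAC occurred in 1.24% of all promoters and in 1 of these 6, that of *Hmgcs1*. The cyclic AMP response element TGACGTCA occurred in 0 of 6, against 1.79% of all promoters. In *Idi1* both CCAAT matches lay close to the start, at -45 and -14, and in *Cyp51* the only one lay at -29. The promoter of *Srebf2* carried 5 GGGCGG matches in its 300 bases. A match describes these letters in this window and is no evidence of binding. Only these exact strings were searched, so the lack of a match does not show that a promoter has no such element.

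The libraries held 87695043 to 173116525 counts, where a read that overlaps several transcripts is counted on each. Levels are given as CPM, the counts of a transcript relative to the library total scaled by edgeR's TMM factors, and 3 counts were worth 0.0171 to 0.0347 CPM. Such a floor covers counting error only. The counts behind the levels ran from 19 to 65 per library for *Idi1*, and from 134 upwards for the other 6 genes, so the fold changes of *Idi1* are the least precise. The chronic unlesioned replicate 2 stood apart from the other 11 libraries in its choroid plexus markers, which summed to 480 CPM against 3.68 to 11.7 elsewhere. Neurons of the striatum were well represented, with 8 markers of spiny neurons at 1495 to 2067 CPM in total.

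Among the enzymes, *Idi1* isomerises isopentenyl diphosphate, the unit from which all isoprenoids are built. Its transcript (chr13:8884852-8891642 on mm9, plus strand, 5 exons) was at 0.251, 0.288 and 0.397 CPM in the acute unlesioned libraries and at 0.243, 0.220 and 0.196 CPM in the acute lesioned ones. After chronic L-DOPA it was at 0.212, 0.309 and 0.175 CPM in the unlesioned and at 0.547, 0.601 and 0.428 CPM in the lesioned striatum. The chronic lesioned libraries were above all 9 others.

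*Fdps* makes farnesyl diphosphate, the branch point to squalene, dolichol and protein prenylation. Its level (chr3:88897510-88905867, minus strand, 10 exons) was 1.53, 1.81 and 1.63 CPM in the acute unlesioned and 1.55, 1.55 and 1.30 CPM in the acute lesioned libraries. It was 1.66, 2.31 and 1.55 CPM in the chronic unlesioned and 1.86, 2.39 and 2.10 CPM in the chronic lesioned libraries. The 2 chronic groups overlapped, and the highest chronic unlesioned value was that of replicate 2.

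*Sqle* oxidises squalene in a rate-limiting step of the late pathway. On chr15:59146636-59162747 (plus strand, 11 exons) it read 6.15, 6.01 and 6.62 CPM in the acute unlesioned libraries, and 6.33, 5.17 and 5.43 CPM in the acute lesioned ones. The chronic unlesioned libraries had 6.13, 6.44 and 6.20 CPM and the chronic lesioned ones 9.94, 11.0 and 9.88 CPM. The chronic lesioned libraries were above all 9 others, and the other 3 groups overlapped.

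*Lss* closes oxidosqualene to lanosterol. It was at 5.34, 5.32 and 6.21 CPM in the acute unlesioned and at 5.23, 4.79 and 5.12 CPM in the acute lesioned striatum (chr10:75994357-76019883, plus strand, 22 exons). Chronic levels were 7.84, 6.74 and 7.16 CPM on the unlesioned side and 8.40, 7.98 and 7.90 CPM on the lesioned side. This gene separated the treatments on both sides, since every chronic library was above every acute one.

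*Cyp51* removes the 14-alpha methyl group of lanosterol. It was at 10.2, 9.17 and 9.66 CPM in the acute unlesioned libraries and at 11.2, 10.0 and 9.89 CPM in the acute lesioned ones (chr5:4080674-4104697, minus strand, 10 exons). The chronic unlesioned libraries read 8.13, 9.31 and 8.57 CPM, and the chronic lesioned ones 18.9, 19.4 and 19.4 CPM. The last 3 lay far above the other 9.

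Of the regulators, *Insig1* retains the SREBP precursors in the endoplasmic reticulum. It was at 8.18, 7.13 and 8.16 CPM in the acute unlesioned and 9.02, 7.04 and 8.40 CPM in the acute lesioned libraries (chr5:28397907-28405201, plus strand, 5 exons). It was at 9.41, 9.09 and 7.41 CPM in the chronic unlesioned and 14.8, 14.3 and 14.3 CPM in the chronic lesioned libraries. Again the chronic lesioned group alone stood clear of the rest.

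*Srebf2* encodes the factor that drives the enzymes above. It read 41.1, 42.2 and 46.6 CPM in the acute unlesioned, 39.6, 37.4 and 35.7 CPM in the acute lesioned, 35.1, 40.5 and 43.0 CPM in the chronic unlesioned and 36.9, 39.3 and 39.6 CPM in the chronic lesioned libraries (chr15:81977696-82035806, plus strand, 19 exons). Its chronic groups overlapped, and the acute lesioned libraries were all below the acute unlesioned ones.

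**Figure D1:**
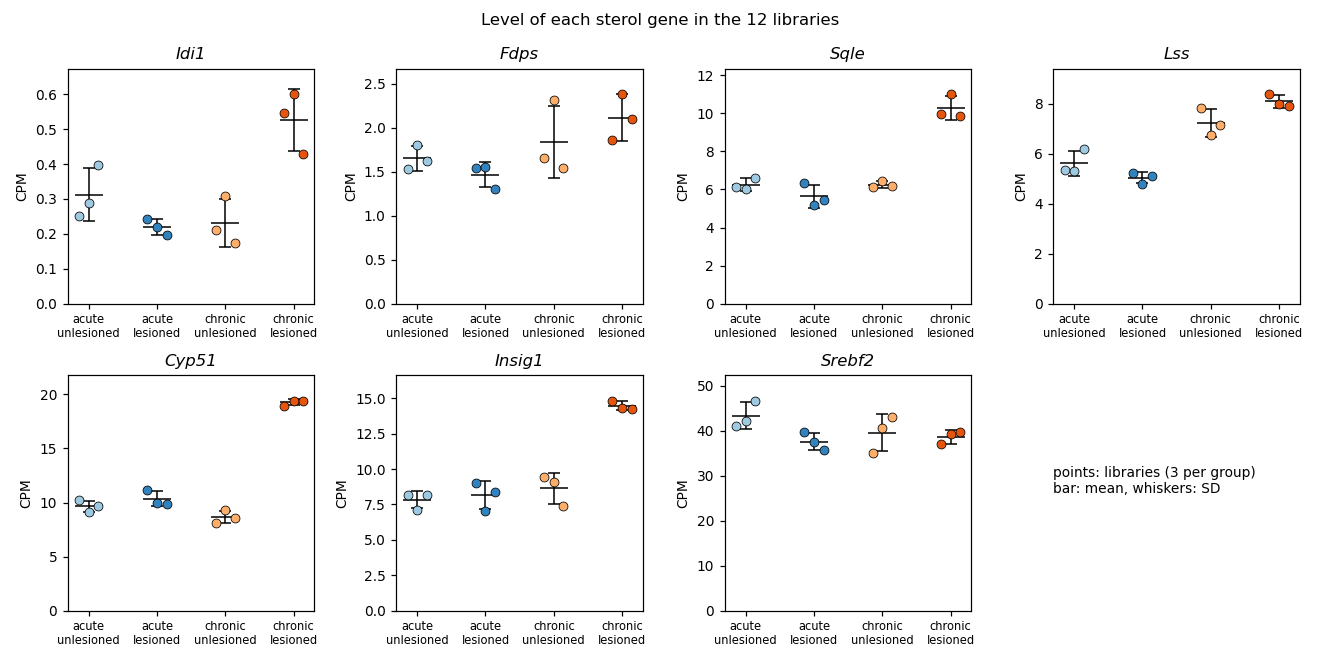
Level of the 7 genes in CPM (vertical axes, each from 0) in the 12 libraries, by group on the horizontal axis, with points for libraries, bars for the group mean and whiskers for the SD of 3 libraries. In *Idi1*, *Sqle*, *Cyp51* and *Insig1* the chronic lesioned libraries stand clear of the other 9, *Lss* is higher in both chronic groups, and *Srebf2* shows no such step.

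The first comparison asked what the lesion changed after 1 dose of L-DOPA. None of the sterol genes was called: in edgeR's quasi-likelihood test 0 of 7 passed an adjusted p of 0.05, where 15.3% of the 20402 genes tested did, and 1 of 7, *Srebf2*, had an unadjusted p under 0.05. *Srebf2* was at 37.6 ± 1.97 CPM (SD, n = 3) in the lesioned and 43.3 ± 2.95 CPM in the unlesioned striatum, a log2 fold change of -0.20 (SE 0.066, adjusted p = 0.0681). It was called lower with the replicate number as a block (-0.20, adjusted p = 0.0364), and also without acute lesioned replicate 1 (-0.24, adjusted p = 0.0472). The other log2 fold changes were -0.48 for *Idi1*, -0.17 for *Fdps*, -0.15 for *Lss*, -0.14 for *Sqle*, 0.07 for *Insig1* and 0.10 for *Cyp51*, with adjusted p from 0.219 to 0.668. Of the 7, 3 (*Idi1*, *Lss* and *Srebf2*) had every lesioned library below every unlesioned one, as 17.8% of all genes did. The median over the 7 genes was -0.147, against 0.0153 over all genes tested.

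After chronic L-DOPA the lesion separated 4 of the 7 genes. *Cyp51* was at 19.3 ± 0.280 CPM (SD, n = 3) in the lesioned and 8.67 ± 0.593 CPM in the unlesioned striatum, which is 2.22-fold (log2 1.15, SE 0.079, adjusted p = 6.41e-06). *Sqle* rose 1.64-fold (log2 0.72, SE 0.082, adjusted p = 0.000273), *Insig1* rose 1.68-fold (log2 0.75, SE 0.098, adjusted p = 0.000694) and *Idi1* rose 2.28-fold (log2 1.19, SE 0.26, adjusted p = 0.0145). In this comparison 13.7% of 19742 genes were called and 8.46% were called higher, and the median log2 fold change of the 7 was 0.718 against -0.0145 over all genes.

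The other 3 did not pass the test. The log2 fold change of *Lss* was 0.16 (95% interval -0.03 to 0.35, adjusted p = 0.275), although its 2 groups did not overlap, that of *Fdps* was 0.21 (-0.16 to 0.57, adjusted p = 0.486, with 0.09 without chronic unlesioned replicate 3 and 0.41 without replicate 2) and that of *Srebf2* was -0.03 (-0.23 to 0.17, adjusted p = 0.859). Lesioned libraries above unlesioned ones without overlap were found for 5 of the 7 genes and for 16.5% of all genes. The call of *Idi1* was lost without single libraries. Without chronic unlesioned replicate 1 the value was 1.14 (adjusted p = 0.0537), and without replicate 3 it was 1.00 (adjusted p = 0.0688). Without replicate 2 of that group, the library with the choroid plexus markers, its value was 1.45 and the 4 genes kept their calls.

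Over all transcripts of a gene, 7 of 7 of *Sqle*, 12 of 12 of *Cyp51*, 5 of 5 of *Insig1* and 5 of 5 of *Idi1* were called higher, where 7.71% of all transcripts were, and 0 of the 15 tested of *Lss*, 0 of 4 of *Fdps* and 0 of 8 of *Srebf2*. The transcripts of a gene share reads and are not independent.

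Within the lesioned striatum, chronic was compared with acute treatment, and 6 of the 7 genes were higher after chronic L-DOPA. *Idi1* was 2.37-fold higher (log2 1.25, SE 0.23, adjusted p = 0.00337), *Cyp51* 1.86-fold (0.90, SE 0.076, adjusted p = 2.87e-05), *Sqle* 1.82-fold (0.86, SE 0.095, adjusted p = 0.00016) and *Insig1* 1.77-fold (0.82, SE 0.094, adjusted p = 0.000208). *Lss* went from 5.05 ± 0.231 to 8.10 ± 0.270 CPM (1.60-fold, log2 0.68, adjusted p = 0.000255) and *Fdps* from 1.47 ± 0.141 to 2.11 ± 0.265 CPM (1.44-fold, log2 0.53, adjusted p = 0.0144). *Srebf2* gave 0.04 (95% interval -0.12 to 0.20, adjusted p = 0.73). The share called was 25.6% of 19790 genes, and 12.5% were called higher. In this comparison 6 of 7 genes also separated the libraries without overlap, as 20.4% of all genes did in this direction. The call of *Fdps* was lost without acute lesioned replicate 3 (log2 0.45, adjusted p = 0.0502).

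Markers of other cell types differed in the same comparison. All 9 oligodendrocyte markers examined, which include *Mbp* and *Mog*, were called lower in the chronic lesioned striatum, by log2 fold changes from -0.90 to -0.67, and their sum ranged from 1661 to 2736 CPM in the acute and from 964 to 1605 CPM in the chronic libraries. Of the 8 astrocyte markers 4 were called lower (641 to 821 against 670 to 700 CPM in total), and of the 8 microglia markers 6 were called lower (88.1 to 107 against 57.6 to 74.0 CPM). Of the 3 blood markers 2 were called lower (4.44 to 8.58 against 1.57 to 3.03 CPM), and of the 4 choroid plexus markers tested 2 were called higher (3.68 to 5.25 against 8.19 to 11.7 CPM). Of the spiny neuron markers 1 was called higher and 2 lower, of the 7 cortical markers tested 1 lower and of the 6 endothelial ones 1 lower. No marker of these lists was at or under 3 counts in all libraries. In bulk tissue, fewer cells of a type and less RNA per cell cannot be told apart, and the part of these shifts in the sterol genes was not tested. In the comparison of lesioned with unlesioned striatum after chronic L-DOPA, 0 of 9 oligodendrocyte, 0 of 8 microglia, 0 of 6 endothelial and 0 of 3 blood markers were called, and 1 of 8 astrocyte markers was called higher. The values of the oligodendrocyte markers were below 0 for 9 of 9 (median -0.23, with sums of 1336 to 1784 CPM in the unlesioned and 964 to 1605 CPM in the lesioned libraries), and those of the endothelial markers above 0 for 6 of 6 (median 0.11). Of the 8 markers of striatal spiny neurons 2 were called higher and 1 lower there (1495 to 1647 CPM in the unlesioned and 1518 to 2067 CPM in the lesioned libraries). Of the cortical glutamatergic markers 0 of the 7 tested were called, but 7 of 7 were below 0 (median -1.52), with sums of 8.84 to 45.9 CPM in the unlesioned and 4.86 to 26.4 CPM in the lesioned libraries. Of 3 choroid plexus markers tested 1 was called lower and 3 were below 0. The part of these markers in the sterol genes was not tested either.

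**Figure D2:**
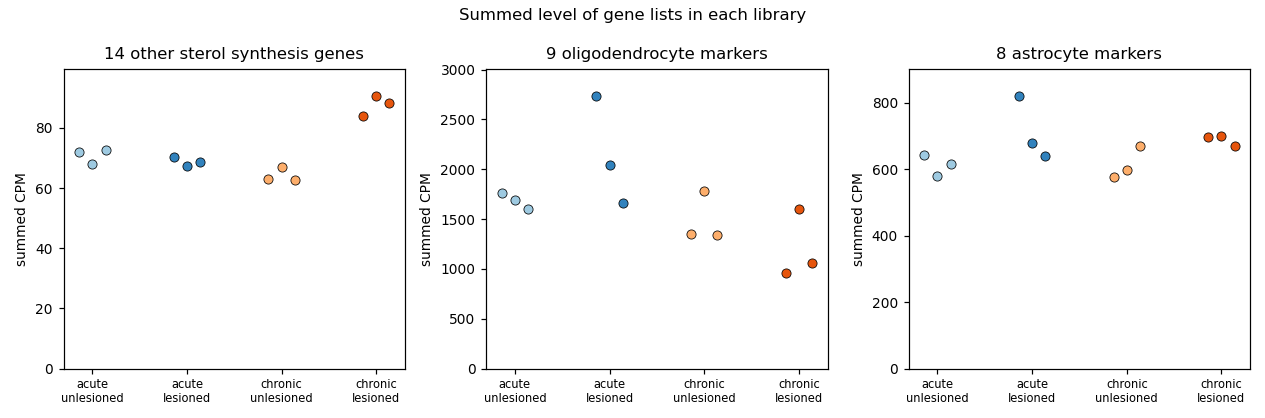
Summed level in CPM (vertical axes, from 0) of 14 other sterol synthesis genes, 9 oligodendrocyte markers and 8 astrocyte markers in each of the 12 libraries, by group. The synthesis genes sum to 84.0 to 90.6 CPM in the chronic lesioned libraries and to at most 72.7 CPM in the others, while the oligodendrocyte markers sum to 964 to 1605 CPM there and to 1661 to 2736 CPM in the acute lesioned group.

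On the unlesioned side 0 of 7 genes were called between chronic and acute treatment in edgeR's test, with 1 at an unadjusted p under 0.05, and 3.07% of 20290 genes were called. That gene was *Lss*, at 7.25 ± 0.553 against 5.62 ± 0.507 CPM, a log2 fold change of 0.37 (SE 0.087, 95% interval 0.17 to 0.56, adjusted p = 0.0523). It alone of the 7 had groups without overlap with chronic above acute, as 12.1% of all genes did. Without chronic unlesioned replicate 2 it was called (0.41, adjusted p = 0.0126), as in DESeq2 (0.37, adjusted p = 0.0141). The rest lay between -0.43 for *Idi1* and 0.15 for *Fdps*, with adjusted p from 0.264 to 0.996, and *Sqle* was at -0.00 (-0.16 to 0.16). Of the marker lists, microglia were below 0 for 8 of 8 genes here (median -0.45, 3 called lower), with sums of 79.0 to 82.8 CPM in the acute and 53.7 to 69.1 CPM in the chronic libraries. Of the astrocyte markers 2 of 8 were called lower, of the spiny neuron markers 1 of 8 lower and of the cortical ones 1 of 8 higher. Choroid plexus markers were above 0 for 4 of 4 (median 4.06, 1 called higher), at 4.24 to 5.26 CPM in the acute libraries, 480 CPM in chronic unlesioned replicate 2 and at least 8.61 CPM in the others of its group. No oligodendrocyte, endothelial or blood marker was called, while 8 of 9 oligodendrocyte (median -0.18), 5 of 6 endothelial (median -0.10) and 3 of 3 blood markers (median -0.76) were below 0, the 3 blood markers with an unadjusted p under 0.05. The part of these markers in the values of this comparison was not tested.

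The difference between the lesion effects after chronic and acute treatment was tested as an interaction over the 12 libraries, and it was above 0 for 7 of the 7 genes and called for 4. The share called was 5.10% of 20682 genes, with 3.53% higher. The difference was 1.67 for *Idi1* (SE 0.36, adjusted p = 0.0141), 1.05 for *Cyp51* (SE 0.10, adjusted p = 1.97e-05), 0.86 for *Sqle* (SE 0.12, adjusted p = 0.000501) and 0.68 for *Insig1* (SE 0.14, adjusted p = 0.0126), all on the log2 scale. For *Fdps* it was 0.38 (-0.07 to 0.83, adjusted p = 0.357), for *Lss* 0.31 (0.07 to 0.56, adjusted p = 0.152) and for *Srebf2* 0.17 (-0.07 to 0.41, adjusted p = 0.451). With the replicate block *Lss* was called as well (0.31, adjusted p = 0.0481). In DESeq2 the difference of *Idi1* was 1.69 but got no adjusted p, and so no call. This comparison uses the same libraries as the others. Of the marker lists, the difference was below 0 for 9 of 9 oligodendrocyte (median -0.59), 8 of 8 microglia (median -0.12), 6 of 8 astrocyte (median -0.15), 6 of 8 cortical (median -0.36), 4 of 4 choroid plexus (median -3.23) and 3 of 3 blood markers (median -0.50). None of these was called in edgeR's test, although 4 of the oligodendrocyte markers had an unadjusted p under 0.05, and 1 of 8 spiny neuron markers was called higher. The part of these markers in the difference was not tested.

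**Figure D3:**
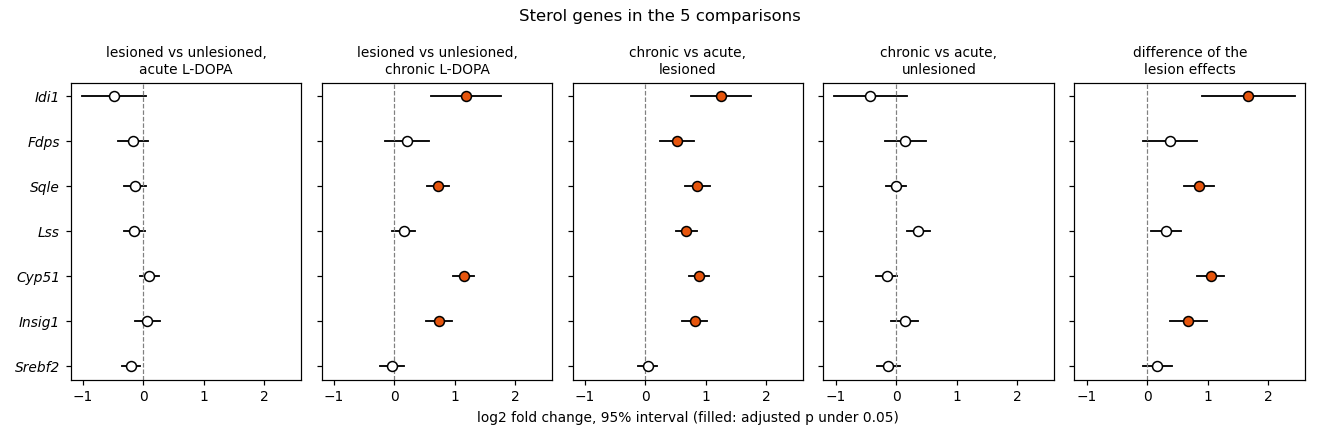
Log2 fold change (horizontal axis) of the 7 genes in the 5 comparisons, with 95% intervals from edgeR and filled points where the adjusted p is under 0.05. *Idi1*, *Sqle*, *Cyp51* and *Insig1* are filled in the chronic lesion comparison, in the lesioned chronic versus acute comparison and in the difference of the lesion effects, and *Srebf2* is open throughout.

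Levels were compared between genes on the deposited normalized expression signal, which is scaled per length. In the acute unlesioned striatum *Srebf2* had the highest mean signal (0.407), then *Insig1* (0.142), *Sqle* (0.107), *Cyp51* (0.106), *Fdps* (0.0617), *Lss* (0.0378) and *Idi1* (0.00515). In the chronic lesioned striatum the order was *Srebf2* (0.349), *Insig1* (0.252), *Cyp51* (0.202), *Sqle* (0.169), *Fdps* (0.0756), *Lss* (0.0523) and *Idi1* (0.00825). *Sqle* and *Cyp51* in the acute unlesioned libraries were the only neighbours in any of the 4 orders whose libraries overlapped.

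**Figure D4:**
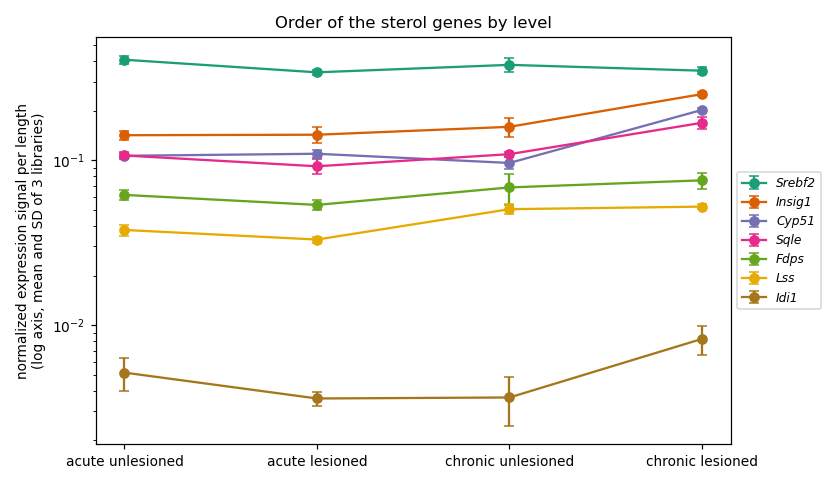
Normalized expression signal per length (log axis) of the 7 genes in the 4 groups, as the mean and SD of 3 libraries, with lines joining the values of a gene. *Srebf2* is highest and *Idi1* lowest in every group, and *Insig1*, *Cyp51* and *Sqle* are nearest to *Srebf2* in the chronic lesioned striatum.

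Beyond the 7 genes, a list of 40 other genes of sterol and lipid metabolism was examined by role. Of the 14 other synthesis genes, 9 were called higher and 0 lower in the lesioned against the unlesioned striatum after chronic L-DOPA, with a median log2 fold change of 0.51, where 8.46% of all genes tested were called higher. After acute L-DOPA 1 was called higher and 1 lower, where 15.3% of all genes were called. Between chronic and acute lesioned striatum 8 of the 14 were called higher and 0 lower, where 12.5% of all genes were called higher, and for the difference of the lesion effects 7 were called higher and 0 lower, against 3.53% of all genes. *Fdft1*, squalene synthase, which stands between *Fdps* and *Sqle*, was at 12.0, 11.1, 11.6 and 15.4 CPM on average in the acute unlesioned, acute lesioned, chronic unlesioned and chronic lesioned groups. It was called higher in the chronic lesion comparison (0.41, adjusted p = 0.0118) and between chronic and acute lesioned striatum (0.47, adjusted p = 0.00317). The first of these calls was lost in 3 of 6 fits with 1 library left out (0.37 to 0.49, adjusted p up to 0.0555).

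Further along the pathway, *Sc4mol* (also *Msmo1*), a sterol 4-methyl oxidase, was higher by 0.76 in the chronic lesion comparison (adjusted p = 0.00113), and *Sc5d*, which introduces the C5 double bond, by 0.57 (adjusted p = 0.00152). On the unlesioned side *Sc4mol* was called lower after chronic than after acute treatment (-0.56, adjusted p = 0.0193). In that comparison 3.07% of all genes were called. The call was lost in 5 of 6 fits with 1 library left out (-0.68 to -0.49, adjusted p up to 0.111) and under 2 of 11 other settings. With the replicate block *Sc4mol* was also called lower in the acute lesion comparison (-0.21, adjusted p = 0.0128). *Hsd17b7*, a sterol reductase, was higher by 0.46 in the chronic lesion comparison (adjusted p = 0.0159) and by 0.81 between chronic and acute lesioned striatum (adjusted p = 0.000472). Its call in the chronic lesion comparison was lost in 2 of 6 fits with 1 library left out (0.38 to 0.51, adjusted p up to 0.0657). *Nsdhl*, a dehydrogenase of the same demethylation steps, was higher by 0.60 (adjusted p = 0.00916) and 0.64 (adjusted p = 0.00196) in these comparisons. *Dhcr7*, a reductase of the final steps, was higher by 0.61 in the chronic lesion comparison (adjusted p = 0.00202), while its value between chronic and acute lesioned striatum was 0.12 and did not pass the test. On the unlesioned side it was at 4.95 CPM after acute and 3.96 CPM after chronic treatment on average (-0.32), which was not called. *Pmvk*, phosphomevalonate kinase, was higher in the lesioned striatum after both treatments (0.56 acute, adjusted p = 0.000573, and 0.73 chronic, adjusted p = 0.00573). Its difference between them was 0.17 and was not called.

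Of 5 genes of uptake and transport within the cell, 1 was called higher in the chronic lesion comparison, where 8.46% of all genes were. Between chronic and acute lesioned striatum 1 was called higher and 1 lower, where 12.5% of all genes were called higher and 25.6% in either direction. The gene called in the chronic lesion comparison was *Stard4*, a sterol carrier, which rose by 0.43 (adjusted p = 0.00976) there and by 0.70 between acute and chronic lesioned striatum (adjusted p = 0.000267). *Npc2*, which moves cholesterol out of lysosomes, was higher on the lesioned side after the acute dose (0.32, adjusted p = 0.015) and fell between acute and chronic lesioned striatum (-0.40, adjusted p = 0.013). Each of these calls was lost in 2 of 6 fits with 1 library left out (adjusted p up to 0.0645 and 0.0631).

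Of the 7 genes of export and storage, 4 were called higher on the lesioned side after a single dose, where 8.16% of all 20402 genes were, and 1 after chronic treatment, where 8.46% were. Markers of other cell types differed in the acute comparison too. The log2 fold change was above 0 for 9 of 9 oligodendrocyte markers (median 0.33, 2 called higher), 8 of 8 microglia markers (median 0.23, 3 called higher) and 7 of 8 astrocyte markers (median 0.23, 2 called higher). Their sums in the acute unlesioned and lesioned libraries were 1604 to 1763 against 1661 to 2736 CPM for oligodendrocytes, 79.0 to 82.8 against 88.1 to 107 CPM for microglia and 581 to 645 against 641 to 821 CPM for astrocytes. Of the 8 markers of spiny neurons 4 were called higher and 3 lower, down to -2.30, with sums of 1513 to 1799 against 1719 to 1888 CPM. Of the 8 cortical glutamatergic markers 6 were below 0 (median -1.23, 1 called higher and 1 lower), with sums of 15.9 to 33.7 against 5.78 to 19.7 CPM. Of the 4 choroid plexus markers tested 1 was called lower, and of the endothelial and blood markers 0 of 6 and 0 of 3 were called. The part of these shifts in the sterol and export genes was not tested. The gene called after chronic treatment was *Soat1*, which esterifies cholesterol for storage, at 3.61, 3.77 and 3.25 CPM in the chronic unlesioned and 13.0, 13.9 and 10.7 CPM in the chronic lesioned libraries (log2 1.82, adjusted p = 2.69e-06). Its acute call (0.31, adjusted p = 0.0469) was lost in 4 of 6 fits with 1 library left out and under 5 of 11 other settings. *Apoe*, the main lipid carrier of the brain, was at 238 CPM in the acute unlesioned, 334 in the acute lesioned, 270 in the chronic unlesioned and 257 CPM in the chronic lesioned group. It was called higher after acute L-DOPA (0.49, adjusted p = 0.000514) and its lesion effect was lower after chronic than after acute treatment (difference -0.56, adjusted p = 0.00283). *Abca1*, the cholesterol efflux pump, was called higher on the lesioned side after acute L-DOPA (0.50, adjusted p = 0.0133), which was lost in 1 of 6 fits with a library left out (adjusted p up to 0.0643). Its difference of lesion effects was -0.69 (adjusted p = 0.0476), and this call was lost in 10 of 12 fits with 1 library left out (-0.82 to -0.54, adjusted p up to 0.124) and under 3 of 10 other settings. Between acute and chronic treatment it was called higher on the unlesioned side (0.58, adjusted p = 0.0362), and the value on the lesioned side was -0.11 with no call. The unlesioned call was lost in 5 of 6 fits with 1 library left out. Between chronic and acute lesioned striatum 4 of the 7 export and storage genes were called lower and 1, *Soat1*, higher (1.30, adjusted p = 2.41e-05), where 2587 of 19790 genes were called lower. The 4 were *Apoe* (-0.38, adjusted p = 0.00589), *Nr1h2*, *Nr1h3*, which encodes an oxysterol receptor (-0.69, adjusted p = 0.0238), and *Cyp46a1*, the cholesterol 24-hydroxylase (-0.28, adjusted p = 0.0373). *Nr1h2*, a receptor of the same kind as *Nr1h3*, was higher on the lesioned side after the acute dose (0.31, adjusted p = 0.0232, lost in 3 of 6 fits with 1 library left out) and lower in chronic than in acute lesioned striatum (-0.55, adjusted p = 0.00237). Its difference of lesion effects was called with the replicate block (-0.34, adjusted p = 0.0261) and not without (-0.34, adjusted p = 0.151).

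Of the 5 regulators on the list, 0 were called in the chronic lesion comparison by edgeR, with 1 at an unadjusted p under 0.05, where 13.7% of all genes were called. After the acute dose 1 was called higher and 1 lower, where 15.3% of all genes were called. The lower one was *Mbtps1*, the protease that makes the first cut in SREBP precursors (-0.22, adjusted p = 0.0489). After chronic L-DOPA *Mbtps1* was also lower, at 26.1 CPM on the lesioned and 34.6 CPM on the unlesioned side on average, with no call. Of the 5 regulators, 4 were below 0 in that chronic comparison (median -0.16, lowest -0.41). *Srebf1*, the relative of *Srebf2* that mostly drives fatty acid synthesis, was higher on the lesioned side after the acute dose (0.46, adjusted p = 0.00355), and its difference of lesion effects was below 0 (-0.58, adjusted p = 0.00759). Between acute and chronic treatment it was called higher on the unlesioned side (0.36, adjusted p = 0.0393), a call lost in 5 of 6 fits with 1 library left out, and its value on the lesioned side was -0.22 (adjusted p = 0.0735). Of 9 fatty acid genes 1 was called in any of the 5 comparisons, *Acss2*, an acetyl-CoA synthetase, higher by 0.49 in the chronic lesion comparison (adjusted p = 0.0372), where 8.46% of all genes were called higher.

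**Figure D5:**
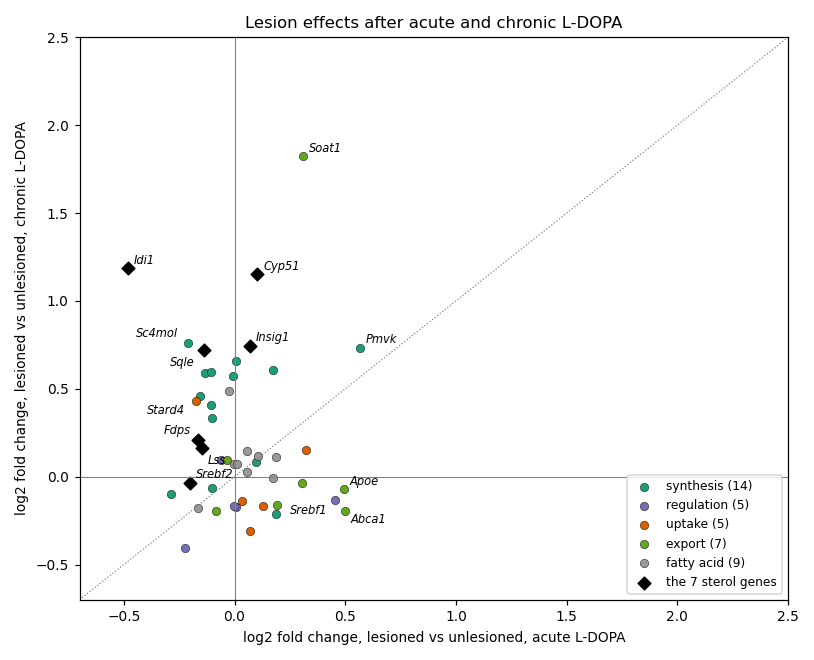
Log2 fold change, lesioned against unlesioned, for acute (horizontal axis) and chronic L-DOPA (vertical axis) for the 7 sterol genes (diamonds) and 40 listed genes coloured by role, with a dotted line of equal effects. *Soat1*, *Idi1* and *Cyp51* lie highest, at 1.82, 1.19 and 1.15 after chronic L-DOPA. *Pmvk* lies furthest to the right, at 0.56 after acute L-DOPA, before *Abca1* at 0.50 and *Apoe* at 0.49.

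The genes were also described by how they varied together over the 12 libraries, with no test since the libraries share groups. Pearson's r of a gene with the mean of the other 6 was 0.96 for *Sqle*, 0.89 for *Idi1*, 0.83 for *Insig1*, 0.79 for *Cyp51*, 0.74 for *Fdps*, 0.68 for *Lss* and -0.06 for *Srebf2*. Outside the set, among 7012 genes of at least 5 CPM, the 8 closest to the mean of the members were *Rph3a* (r = 0.964), *Atp5f1* (0.953), *Car12* (0.948), *Atp5g3* (0.946), *Rims4* (0.944), *Reep1* (0.943), *Got1* (0.936) and *Tns1* (0.929). None of them is on the list of sterol and lipid genes. Among the listed genes of at least 5 CPM, *Stard4* came nearest (0.912), before *Sc5d* (0.879). Listed genes under 5 CPM, such as *Nsdhl* (3.17 CPM), *Hsd17b7* (3.40 CPM) and *Mvd* (2.78 CPM), were not candidates.

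The levels of 3 genes are uncertain because the genome holds near copies of their transcripts, and how reads with several positions were treated is not stated in the sources used here. On mm9, *Idi1* has copies at chr2:53553399-53555892 (99.3% identity) and chr5:87797121-87799562 (95.2%). *Fdps* has copies at chr10:93241356-93242512 (98.8%), chr6:6685374-6686549 (95.8%) and chrX:57979514-57980698 (95.9%), and *Insig1* has 1 at chr3:69767202-69769239 (97.9%). Transcripts of the table lying on these copies reached at most 0.144 CPM for *Idi1* and 0.261 CPM for *Fdps*. *Sqle*, *Lss*, *Cyp51* and *Srebf2* had 0 copies at this identity. On the opposite strand, *Idi1* overlaps a transcript at up to 0.0436 CPM and *Lss* one at up to 0.278 CPM, and whether counting used the strand is not stated either.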

How the data were processed

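Striatal RNA of 12 libraries was read from the deposited count table. The authors prepared TruSeq libraries, sequenced them on a Genome Analyzer II, aligned them to mm9 and deposited raw read counts for each transcript. A normalized expression signal was deposited as well, scaled by length and library size (median of signal times length over CPM 46.3, 5th to 95th percentile 42.2 to 49.1, over 76167 transcripts with at least 100 counts). The authors' 3 comparison tables hold fold changes and p-values from DESeq and were not used, nor were 36 columns of per-sample values in them. Groups were read from the sample titles, and the study's design text gives 3 mice per condition. Replicates differed by more than sampling noise (chi-square per degree of freedom 7.35 to 28.7).

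Transcripts without a gene name (296, with 0.0485% of the counts) were left out. Counts of all transcripts kept by filterByExpr were fitted with edgeR 4.0.16 (glmQLFit and glmQLFTest, TMM, R 4.3.3), 2 groups at a time and all 12 libraries for the interaction, with Benjamini-Hochberg adjustment over all transcripts tested and a threshold of 0.05. Counts of genes and shares called take 1 transcript per gene. The procedure was tested on simulated data.

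Same-numbered lesioned and unlesioned libraries deviated together over 12794 genes (r = 0.478, 0.444 and 0.390 for acute, 0.519, 0.566 and 0.153 for chronic). The numbers were therefore taken as pairs of the lesion comparisons in the replicate block, an alternative setting. The main fits had no block, so their p-values leave out this pairing. The pairing comes from these correlations, since the design text counts 12 mice. Alternatives were DESeq2 1.42.0 as size factors and as a test, upper-quartile factors, no filter, a single or summed transcript per gene, all 12 libraries in a fit, a threshold of 0.01, the replicate block and leaving out each library. A removal of the GC and length trend was added after seeing the data. Copies were searched with BLAST+ 2.17.0 at 95% identity, and promoters are RefSeq's on GRCm38.p6, another build than that of the files.

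The members, lists and motifs were chosen with earlier results of these data known. The 7 members with a row are named in each comparison, and of the 40 listed genes those called in any comparison, up to the 6 with the smallest adjusted p in each. *Acss2*, *Mbtps1*, *Mvd*, *Nr1h3* and *Cyp46a1* were named after their values were seen. Some genes of the lists are not reported here. The genes most like the members were the 8 with the highest r.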

Additional observations from a re-analysis of the deposited data

Results flagged for a closer look

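The effect of the lesion differed between acute and chronic L-DOPA for 15 of the named results, by edgeR's interaction test over the 12 libraries. Over all genes, 5.10% of 20682 were called in this test and 3.53% were called higher. Some of the named listed genes were picked by this same test, so the 15 is partly fixed by the choice of genes. Of the sterol genes, 4 were called, with log2 differences (chronic minus acute) of 0.86 for *Sqle*, 1.67 for *Idi1*, 1.05 for *Cyp51* and 0.68 for *Insig1*. Of the 12 other listed genes called, the effect was larger after chronic treatment for *Soat1* (1.52), *Sc4mol* (0.97), *Nsdhl* (0.71), *Hsd17b7* (0.61), *Stard4* (0.61), *Sc5d* (0.58), *Fdft1* (0.52) and *Dhcr7* (0.44), and also for *Mvd* (0.73, adjusted p = 0.0197), which the rule for named genes did not take. It was smaller for *Apoe* (-0.56), *Srebf1* (-0.58) and *Abca1* (-0.69). With 1 library left out, the call was lost in 10 of 12 fits for *Abca1* (-0.82 to -0.54), in 7 of 12 for *Hsd17b7* (0.54 to 0.72) and in 7 of 12 for *Dhcr7* (0.38 to 0.48). Between acute and chronic treatment *Srebf1* and *Abca1* were called higher on the unlesioned side (0.36 and 0.58) and had values of -0.22 and -0.11 with no call on the lesioned side. The test for outlying libraries needs groups of at least 4 and was not applied.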

How the results depend on the processing

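The fold changes of the 7 sterol genes kept their direction and their side of the threshold in 355 of 378 values under other settings, and in 241 of 252 with 1 library left out. For the named listed genes this held in 715 of 756 and 434 of 504. The cause of the changes below was not tested, except that fewer genes pass a threshold of 0.01 by construction.

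After acute L-DOPA the count of sterol genes called (0) was 1, *Srebf2*, without a filter, with the replicate block, in DESeq2 and with the GC and length trend removed, with or without the block. It was 0 to 1 with 1 library left out. Of the listed genes (9) 3 passed 0.01, 12 were called with the block, and 4 to 7 with 1 library left out. After chronic L-DOPA 7 of the 12 listed genes passed 0.01, 18 were called with the block and the GC and length trend removed, and 8 to 13 with 1 library left out. Between chronic and acute lesioned striatum 9 of 15 passed 0.01, and 10 to 18 were called with 1 library left out. Between chronic and acute unlesioned striatum the count of sterol genes (0) was 1, *Lss*, with upper-quartile factors, no filter, a single transcript, all 12 libraries or DESeq2, and 0 to 1 with 1 library left out. The count of listed genes (3) was 0 at 0.01, 0 with summed transcripts, 1 with the block, 5 with no filter, 5 with all 12 libraries, 5 in DESeq2 and 5 with the GC and length trend removed. It ran from 0 to 11 with 1 library left out, and the 11 came without chronic unlesioned replicate 2. For the difference of lesion effects, 2 of 4 sterol genes and 6 of 12 listed genes passed 0.01, and 8 to 12 listed genes were called with 1 library left out. In DESeq2 *Idi1* (1.69) got no adjusted p there and counts as not called.

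In the unlesioned striatum the log2 value of *Sqle* (-0.00) turned to 0.00088 with DESeq2 size factors, 0.0065 with upper-quartile factors, 0.011 with a single transcript, 0.026 with the GC and length trend removed and 0.026 with the block added to that. With 1 library left out, values on both sides of 0 occurred there for *Sqle* (-0.028 to 0.040), *Fdps* (-0.052 to 0.273), *Pmvk* (-0.135 to 0.013), *Nsdhl* (-0.127 to 0.029) and *Fdft1* (-0.094 to 0.00018). They also occurred after acute L-DOPA for *Insig1* (-0.0097 to 0.159) and *Sc5d* (-0.070 to 0.043), after chronic L-DOPA for *Srebf2* (-0.113 to 0.030) and *Nr1h2* (-0.075 to 0.034), and in the lesioned striatum for *Abca1* (-0.187 to 0.047).

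With the replicate block, the transcripts called over the whole table went from 16684 to 28237 for acute, from 15295 to 27505 for chronic and from 5911 to 15876 for the difference of lesion effects. The block changed no other call of a sterol or named gene in these 3 than those given with the results. Between chronic and acute striatum the numbers did not pair the libraries (r from -0.163 to 0.249). There 27758 transcripts were called with the block and 29698 without it for the lesioned side, and 2817 and 3366 for the unlesioned side. With the GC and length trend removed, the genes called after acute L-DOPA split into 1206 higher and 2197 lower, against 1254 higher and 1318 lower with the trend kept, both over the 14460 tested genes with a GC value. Over all 20402 genes the split was 1665 higher and 1460 lower. With the trend removed *Srebf2* was at -0.25 (adjusted p = 0.0192). With the block added, *Lss* was called after chronic L-DOPA (0.20, adjusted p = 0.04). Depth limits *Idi1* most, with 19 to 65 counts per library.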
